A study of Mus musculus with 2 samples.

Results

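The Notch pathway genes Notch1, Notch2, Dll1, Dll4, Jag1, Jag2, Lfng, Rbpj and Hes1 were read in single-cell RNA-seq of mouse jejunal crypts. They are 9 of the 27998 genes in the count matrices and were chosen by name, as receptors, ligands, a receptor modifier, the nuclear effector and a direct target of the pathway. The crypts came from 2 male mice, 12 months old, whose miR-375 gene had been deleted in the whole body with CRISPR/Cas9 (375KO). The label gives the strain as C57BL6/2J, and per the study's methods the founders were FVB x B6 hybrids that were backcrossed for several generations to B6 albino mice. Each mouse gave 1 library (375KO replicate 1 and replicate 2), made from dispase-treated crypts with a 10x Genomics kit that tags the 3′ ends of polyadenylated RNA. Wild-type cells were not used here, so every comparison is between cell types of 375KO mice and none is between genotypes. The deletion itself was not checked, since miR-375 has no row in the matrices.

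Notch signalling passes between touching cells. A ligand of the Delta-like or Jagged family on one cell binds a Notch receptor on its neighbour, the receptor is cut by ADAM proteases and gamma-secretase, and the freed intracellular domain joins the DNA-binding protein Rbpj to switch on targets such as Hes1. In the intestinal crypt this exchange is known to hold stem and absorptive progenitor cells out of the secretory fate, because Hes1 represses Atoh1, the factor of secretory commitment. Cells that escape Notch turn on Atoh1 and present Delta-like ligands themselves.

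The promoter windows of 4 members are shown because these members lay on opposite sides of the secretory and absorptive comparison described below. Each window is the RefSeq sequence from 250 bases before to 50 after an annotated start in build GRCm38.p6, written 5′ to 3′ on the strand of the gene. Capitals mark matches on either strand to TGGGAA, the core letters bound by Rbpj (TTCCCA when the match is on the other strand), and to CAGCTG, a form of the E-box that basic helix-loop-helix factors such as Atoh1 bind. Dll1 has 2 annotated windows, of which the upstream one, chr17:15376883-15377182 on the minus strand, is shown. The windows of Dll4 (chr2:119325534-119325833, plus strand), Jag1 (chr2:137116471-137116770, minus strand) and Lfng (chr5:140607091-140607390, plus strand) follow it.
Dll1: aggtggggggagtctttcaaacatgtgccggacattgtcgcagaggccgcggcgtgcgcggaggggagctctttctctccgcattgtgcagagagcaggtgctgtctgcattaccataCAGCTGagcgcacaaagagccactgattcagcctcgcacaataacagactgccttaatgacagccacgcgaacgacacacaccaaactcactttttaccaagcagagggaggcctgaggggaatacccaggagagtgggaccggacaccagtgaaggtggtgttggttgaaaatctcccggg
Dll4: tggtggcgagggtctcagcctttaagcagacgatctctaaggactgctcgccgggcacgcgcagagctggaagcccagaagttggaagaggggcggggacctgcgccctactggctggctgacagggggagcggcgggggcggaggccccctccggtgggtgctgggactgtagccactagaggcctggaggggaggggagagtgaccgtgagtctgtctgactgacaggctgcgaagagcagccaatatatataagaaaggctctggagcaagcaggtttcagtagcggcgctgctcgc
Jag1: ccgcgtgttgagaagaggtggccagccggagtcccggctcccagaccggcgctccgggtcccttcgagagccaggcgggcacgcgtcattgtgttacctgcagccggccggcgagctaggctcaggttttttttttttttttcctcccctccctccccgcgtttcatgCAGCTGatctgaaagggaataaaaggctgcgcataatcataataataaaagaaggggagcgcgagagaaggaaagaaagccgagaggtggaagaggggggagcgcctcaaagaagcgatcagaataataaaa
Lfng: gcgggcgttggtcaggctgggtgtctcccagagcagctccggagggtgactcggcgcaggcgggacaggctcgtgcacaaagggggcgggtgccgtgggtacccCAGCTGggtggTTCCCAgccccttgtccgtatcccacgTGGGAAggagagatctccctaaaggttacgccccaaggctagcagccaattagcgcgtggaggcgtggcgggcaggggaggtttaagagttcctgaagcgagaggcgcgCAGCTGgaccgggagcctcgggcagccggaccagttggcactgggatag
The Lfng window held TGGGAA at 2 places, 135 bases before the start on the opposite strand and 108 bases before it on the strand of the gene. It also held CAGCTG at 2 places, and no match overlapped another. The shown windows of Dll1 and Jag1 held CAGCTG at 1 place each, 132 and 82 bases before the start, and that of Dll4 held neither run of letters. Of the other windows, the 2 of Rbpj overlap. They held TGGGAA at 2 places and at 1 place, and that 1 place is among the same 2. The windows of Notch1, Notch2 and Jag2 and the other window of Dll1 held no match to either. Over the 32851 promoter windows of the same length, 25.6% held TGGGAA at least once, 3.79% held it more than once and 16.3% held CAGCTG. These matches describe letters in a window, and no binding was measured. Windows were found for 8 of the 9 members, all but Hes1.

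The libraries held 2082 and 1193 kept cells with a median of 16475 and 15232 UMIs (unique molecular identifiers, 1 for each captured RNA molecule). UMIs were summed per mouse and per cell type named by the authors, which gave 9 epithelial types and the intraepithelial lymphocytes (IEL). The epithelial types were stem, transit-amplifying (TA), enterocyte, secretory progenitor, goblet progenitor, goblet, Paneth, enteroendocrine (EEC) and tuft cells. An epithelial sum held between 19 and 931 cells. The smallest of these were the secretory progenitors (31 and 19 cells) and the EEC of replicate 2 (20 cells, against 54 in replicate 1). Levels are given as UMIs per 1000000 UMIs of the sum (CPM). The authors named the types from the expression of these same cells, so a difference between types is not independent of how the types were drawn. The 10 types had 60 marker entries for 54 distinct genes, 6 of which stood on more than 1 list. Of the 54 genes, 48 were highest in a type that lists them in both mice, and Pcna, Mcm5, Mcm6, Ascl2, Atoh1 and Spdef were not. None of the 6 goblet progenitor entries was highest in goblet progenitors, and each of those genes was highest in goblet or TA cells. The secretory progenitor list holds Dll1 as well as Hes6 and Atoh1, so for that type the check is not independent of the results below. Paneth cells stood apart, with 82.6% and 81.9% of their UMIs in their 10 most abundant genes against 8.62% to 25.7% in the other epithelial sums, so that their CPM of any other gene is low by construction. The EEC sum of replicate 2 carried IEL markers at a summed 1230 CPM, against 3.22 CPM in replicate 1. Summed endothelial markers, which matter here because vessels express Notch1, Dll4 and Jag1, lay between 1.60 and 30.4 CPM in the epithelial sums, and fibroblast markers at no more than 0.623 CPM. Over all kept cells, IEL included, the 5 endothelial genes had 8 and 1 UMIs (Cdh5), 5 and 0 (Kdr), 47 and 145 (Pecam1), 71 and 38 (Egfl7) and 52 and 28 (Esam) in the 2 mice. Each was highest in IEL or tuft cells where it was found.

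**Figure D1:**
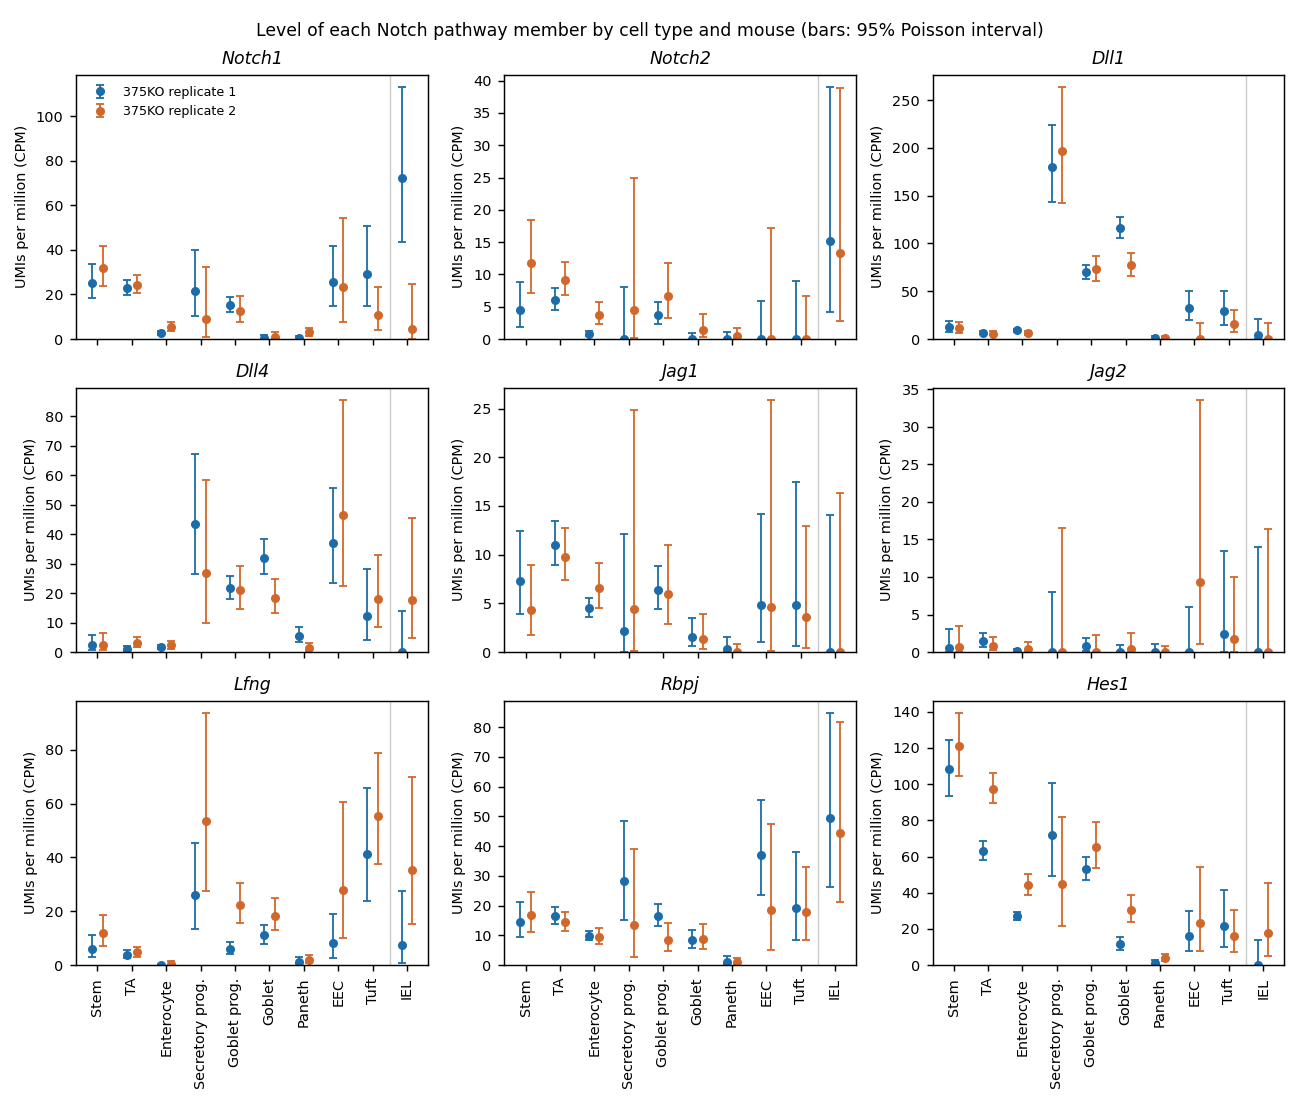
Level of the 9 Notch pathway members (vertical axes, CPM, each panel with its own scale from 0) in 9 epithelial cell types and IEL (right of the grey line), with 1 point per mouse and 95% Poisson intervals that cover counting error only. Dll1 peaked in secretory progenitors at 180 and 196 CPM and Hes1 in stem cells at 108 and 121 CPM, while the small EEC, tuft and secretory progenitor sums have the widest intervals.

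The cell types were compared in 3 ways in 1 model over the 18 epithelial sums. The secretory lineage (both progenitors, goblet, Paneth, EEC and tuft cells, each type weighted equally) was set against the absorptive cells (TA cells and enterocytes), stem cells against the other 8 epithelial types, and secretory progenitors against TA cells. A gene was called at an adjusted p under 0.05 over the 11013 genes that passed a filter on low counts, and fold changes are on the log2 scale after scaling (TMM) that corrects for the few dominant genes of Paneth cells. The 9 members gave 8 tested genes, since Jag2 did not pass the filter. A gene that passes because of the type in which it is high is more likely to differ, so the counts below are descriptive. In the secretory comparison 3 of the 8 tested members were higher and 3 lower, where 16.7% of all tested genes were called higher and 25% lower (41.7% in either direction). For stem cells 3 were higher and 2 lower, against a background of 15.4% and 10.1% (25.6% in either direction). For secretory progenitors 3 were higher and none was lower, against 5.46% and 4.44% (9.9% in either direction). With so many genes called between these cell types, a call by itself sets a member little apart. In all 3 comparisons the counts lie above the background by only a few genes. The replicates are 2 mice and the residual spread is pooled over the cell types, so the p-values rest on how far the types moved together in these 2 mice.

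**Figure D2:**
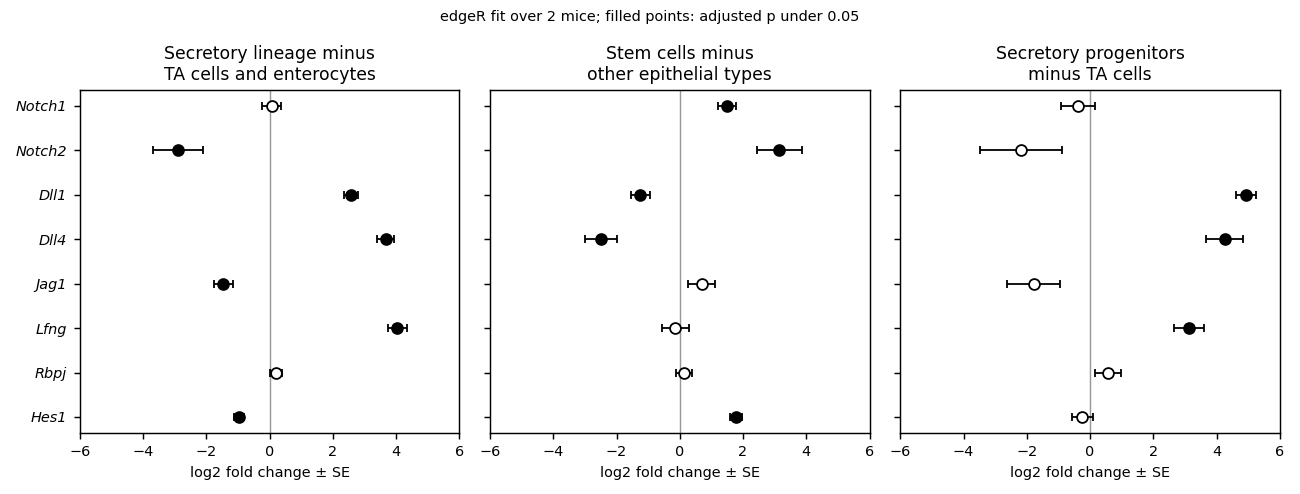
Log2 fold change (horizontal axis) with its standard error (bars) of the 8 tested members in the 3 comparisons, from the edgeR fit over 2 mice, where filled points mark an adjusted p under 0.05. Dll1, Dll4 and Lfng lie right of 0 in the first and the last panel, and Hes1, Notch1 and Notch2 lie right of 0 among stem cells.

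Dll1 (chromosome 17, 15367354 to 15376872, minus strand) encodes Delta-like 1, one of the ligands by which secretory cells signal to their neighbours. Its level was 180 and 196 CPM in the secretory progenitors of replicates 1 and 2, from 83 and 44 UMIs. It was 117 and 77.3 CPM in goblet cells and 70.2 and 73.2 CPM in goblet progenitors. These 3 types stood above every other epithelial type in both mice. Tuft cells followed at 29.0 and 16.1 CPM, while EEC had 32.2 CPM in replicate 1 and no UMI in replicate 2, where 3 UMIs would be 13.9 CPM. Stem cells held 12.3 and 11.2 CPM, enterocytes 8.98 and 5.98 CPM, TA cells 6.52 and 5.77 CPM and Paneth cells 1.42 and 1.60 CPM. The mean over the secretory types was 71.6 and 60.8 CPM, that over the absorptive types 7.75 and 5.88 CPM. Dll1 was thus higher in the secretory lineage, where the log2 fold change was 2.58 with an SE of 0.23 (adjusted p = 2.87e-10, values after ± below are SE), with 5 and 4 of the 6 secretory types above both absorptive types in CPM, where the groups overlapped through Paneth cells and, in replicate 2, EEC. When cells were thinned to 5000 UMIs the Paneth sums held no Dll1 in either mouse and the call was lost (log2 fold change 1.24, adjusted p = 1), and it stood at 2.59 (adjusted p = 1.97e-07) when Paneth cells were also left out.

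Secretory progenitors exceeded TA cells in Dll1 by a log2 fold change of 4.94 ± 0.32 (adjusted p = 5.51e-12), and the values in the individual mice were 4.68 and 4.88. Stem cells had less Dll1 than the equally weighted mean of the other types, with a log2 fold change of -1.25 ± 0.30 (adjusted p = 0.00274). That comparison is less settled. It gave -1.32 in replicate 1 and -0.63 in replicate 2, missed the threshold without the mouse term (adjusted p = 0.0655) and was lost in the thinned cells as above. Stem cells against TA cells alone, at 12.3 and 11.2 against 6.52 and 5.77 CPM, showed a log2 fold change of 1.07 ± 0.39 that did not pass (adjusted p = 0.121), for a pair in which 4.83% of all tested genes were called.

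Dll4 (chromosome 2, 119325784 to 119335962, plus strand) encodes Delta-like 4, the other Delta-like ligand of the crypt. EEC held 37.1 and 46.4 CPM and secretory progenitors 43.4 and 26.8 CPM, and the order of these highest types differed between the mice. Goblet cells held 32.0 and 18.3 CPM, goblet progenitors 21.6 and 21.0 CPM and tuft cells 12.1 and 17.9 CPM. Stem cells (2.24 and 2.49 CPM), TA cells (1.07 and 3.15 CPM) and enterocytes (1.65 and 2.24 CPM) were low in both mice. Paneth cells held 5.41 and 1.37 CPM, but 34.7 and 11.4 CPM after TMM scaling, the highest value of any epithelial type in replicate 1 on that scale. After scaling, goblet and Paneth cells were not told apart (0.19 ± 0.43, adjusted p = 0.822). The secretory mean was 25.3 and 22.0 CPM against an absorptive mean of 1.36 and 2.70 CPM. In CPM all 6 secretory types lay above both absorptive types in replicate 1, and all but Paneth cells did so in replicate 2. The log2 fold change was 3.67 ± 0.28 (adjusted p = 7.76e-12), with 3.84 in replicate 1 and 2.60 in replicate 2. The EEC sums carried neuron or glia markers at 41.9 and 107 CPM besides the IEL markers of replicate 2, and without EEC the value was 3.61 (adjusted p = 1.86e-10).

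Paneth cells were also compared with stem cells after the dominant genes were scaled out. Against stem cells, Paneth cells were higher in Dll4 by 3.61 ± 0.67 on the log2 scale (adjusted p = 0.000109), in a pair that called 31.6% of all tested genes, whereas for Dll1 the difference of 0.26 ± 0.59 was not called (adjusted p = 0.788). The difference between the 2 ligands was not itself tested. In CPM the Paneth values of Dll4 were 5.41 and 1.37 against 2.24 and 2.49 in stem cells, so the groups overlapped before scaling and the call depends on it. Secretory progenitors exceeded TA cells in Dll4 by 4.26 ± 0.58 (adjusted p = 8.34e-06). The values in the individual mice were 4.79 and 2.74, so the one from replicate 2 alone was smaller by more than 1.5 times. Stem cells were lower than the equally weighted mean of the other types (log2 fold change -2.50 ± 0.51, adjusted p = 0.000514), with -2.41 and -2.02 in the individual mice. They were not told apart from TA cells (0.40 ± 0.74, adjusted p = 0.858) or enterocytes (0.09 ± 0.70, adjusted p = 0.930).

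Jag1 (chromosome 2, 137081456 to 137116644, minus strand) encodes Jagged 1, a ligand of the other family, and ran the opposite way. It was highest in TA cells at 11.02 and 9.79 CPM, from 93 and 56 UMIs. Stem cells held 7.29 and 4.36 CPM, goblet progenitors 6.33 and 6.0 CPM and enterocytes 4.49 and 6.54 CPM. Goblet cells were at 1.59 and 1.34 CPM, and Paneth cells gave 1 UMI in replicate 1 and none in replicate 2. The levels in secretory progenitors, EEC and tuft cells rested on 1 to 3 UMIs each and cannot be ordered. The secretory mean was 3.34 CPM in both mice against absorptive means of 7.76 and 8.17 CPM, which gave a log2 change of -1.46 ± 0.31 (adjusted p = 0.000297). Goblet and Paneth cells lay below both absorptive types in both mice. All 6 secretory types did so in replicate 2 and 3 of 6 in replicate 1, counts that include types that cannot be ordered. In secretory progenitors against TA cells the log2 fold change of -1.79 ± 0.84 was not called (adjusted p = 0.202), and neither was that of stem cells at 0.69 ± 0.44 (adjusted p = 0.274).

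Jag2 (chromosome 12, 112907819 to 112929776, minus strand), the second Jagged ligand, was scarcely detected. TA cells held 12 and 5 of its UMIs (1.42 and 0.874 CPM), and no other epithelial sum held more than 4. EEC of replicate 2 reached 9.28 CPM from 2 UMIs, with an interval from 1.12 to 33.5 CPM. No order of types can be read for Jag2 at this depth, and it was not tested.

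Notch1 (chromosome 2, 26457903 to 26516663, minus strand) encodes the main receptor of crypt epithelium. It was at 25.2 and 31.8 CPM in stem cells and at 23.0 and 24.3 CPM in TA cells. EEC held 25.8 and 23.2 CPM, tuft cells 29.0 and 10.7 CPM and secretory progenitors 21.7 and 8.93 CPM, and these last 3 rested on between 2 and 16 UMIs. Goblet progenitors held 15.1 and 12.6 CPM. Enterocytes held 2.69 and 5.24 CPM, goblet cells 0.529 and 0.894 CPM and Paneth cells 0.284 and 2.98 CPM. The receptor was thus detected in stem, TA and progenitor cells and at a like level in EEC and tuft cells, and it was low in enterocytes and goblet cells. After scaling, Paneth cells were not told apart from stem cells (0.80 ± 0.52, adjusted p = 0.262) or TA cells (0.41 ± 0.51, adjusted p = 0.577). TA cells exceeded enterocytes by 2.31 ± 0.30 on the log2 scale (adjusted p = 2.99e-07), in a pair that called 51.7% of all tested genes, while stem and TA cells differed by 0.39 ± 0.30 (adjusted p = 0.567).

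Notch1 in stem cells lay above the mean of the other types, with a log2 fold change of 1.49 ± 0.29 (adjusted p = 0.000274) that was close in the individual mice (1.5 and 1.55). The secretory and absorptive means did not separate, at 15.4 and 9.89 CPM against 12.8 and 14.8 CPM, with a log2 fold change of 0.07 ± 0.29 (adjusted p = 0.909, 95% interval -0.53 to 0.67). Its direction was not settled, since the individual mice gave -0.054 and -0.22 and 9 of the 13 tested alternatives were negative. After scaling, Paneth cells exceeded enterocytes (1.90 ± 0.62, adjusted p = 0.0155) and goblet cells (4.15 ± 0.89, adjusted p = 0.00113) in Notch1, although their CPM was the lowest of the 3 types in replicate 1. These pairs called 39.4% and 18.8% of all tested genes. Those Paneth sums held 1 UMI of Notch1 in replicate 1 and 13 in replicate 2, and the Paneth sum of replicate 2 also carried IEL markers at 92.8 CPM against 0.569 CPM in replicate 1. Their part in the Notch1 result was not tested.

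Notch2 (chromosome 3, 98013527 to 98150361, plus strand) encodes the second receptor. Its levels were low, at 4.48 and 11.8 CPM in stem cells, 6.04 and 9.09 CPM in TA cells and 3.72 and 6.60 CPM in goblet progenitors. Enterocytes held 0.723 and 3.74 CPM. No UMI was found in EEC or tuft cells of either mouse, where 3 UMIs would have been between 4.83 and 13.9 CPM. In each mouse alone this limit in EEC lay above the stem cell level, but over both mice the fit called stem cells above EEC (adjusted p = 0.0334) and above tuft cells (adjusted p = 0.0147), in pairs that called 25.9% and 21.2% of all tested genes. No fold is given against these sums without a UMI. Goblet cells (0 and 1.34 CPM), Paneth cells (0 and 0.458 CPM) and secretory progenitors (0 and 4.46 CPM) had 0 to 3 UMIs each.

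The secretory mean of Notch2 was 0.620 and 2.14 CPM and the absorptive mean 3.38 and 6.42 CPM. Within the absorptive cells, TA cells exceeded enterocytes by 1.72 ± 0.43 (adjusted p = 0.00117), in a pair that called 51.7% of all tested genes. The groups overlapped in CPM, since goblet progenitors held more Notch2 than enterocytes in both mice. The fitted log2 fold change of -2.89 ± 0.80 (adjusted p = 0.00389) averages over types with no UMI, so its size depends on how the fit treats zeros. DESeq2 gave -1.83, the individual mice -2.09 and -1.26, and without the mouse term the call was lost (adjusted p = 0.0639). The same holds for stem cells against the other types, with a fitted 3.15 ± 0.71 (adjusted p = 0.00138), 2.31 and 1.83 in the individual mice, and an adjusted p of 0.0643 without the mouse term. In both comparisons all values had the same direction.

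Lfng (chromosome 5, 140607320 to 140615545, plus strand) encodes Lunatic fringe, a glycosyltransferase that adds sugar to Notch receptors and so tunes their response to Delta-like against Jagged ligands. It was highest in tuft cells at 41.1 and 55.4 CPM and next highest in secretory progenitors at 26.1 and 53.6 CPM. These types were not told apart (0.16 ± 0.44, adjusted p = 0.912). After TMM scaling secretory progenitors were highest in replicate 2, at 41.6 CPM against 39.0 CPM in tuft cells. EEC held 8.06 and 27.9 CPM, goblet cells 11.1 and 18.3 CPM and goblet progenitors 5.96 and 22.2 CPM. Stem cells were at 6.17 and 11.8 CPM, TA cells at 3.91 and 4.72 CPM and Paneth cells at 1.14 and 2.06 CPM. Enterocytes had 3 UMIs among 19366535 in replicate 1 and 2 among 5348340 in replicate 2, or 0.155 and 0.374 CPM, the lowest level in both mice. The secretory mean was 15.6 and 29.9 CPM, the absorptive mean 2.03 and 2.55 CPM, and 5 of 6 secretory types lay above both absorptive types in each mouse in CPM. The exception was Paneth cells, although after scaling TA cells were lower than Paneth cells (log2 fold change -1.85 ± 0.57, adjusted p = 0.0110, in a pair that called 36.2% of all tested genes).

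Lfng was higher in the secretory lineage by a log2 fold change of 4.04 ± 0.31 (adjusted p = 2.10e-12), with 2.96 and 3.43 in the individual mice. Part of this distance lay within the absorptive cells, since TA cells exceeded enterocytes by 3.58 ± 0.54 (adjusted p = 1.63e-06). Against TA cells alone, secretory progenitors were higher by 3.13 ± 0.48 (adjusted p = 3.12e-05). Stem cells did not differ detectably from the mean of the other types (log2 fold change -0.14 ± 0.42, adjusted p = 0.894, 95% interval -0.999 to 0.72). Lfng was higher in replicate 2 in all 9 epithelial types, and with each type weighted equally the ratio of replicate 2 to replicate 1 was 1.89. With 1 library per mouse this difference between mice has no test.

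Rbpj (chromosome 5, 53466152 to 53657362, plus strand) encodes the DNA-binding partner through which all Notch receptors act. It was detected in every type. EEC held 37.1 and 18.6 CPM, secretory progenitors 28.2 and 13.4 CPM, tuft cells 19.3 and 17.9 CPM, TA cells 16.5 and 14.5 CPM and stem cells 14.6 and 16.8 CPM. Goblet progenitors were at 16.6 and 8.40 CPM, enterocytes at 9.91 and 9.35 CPM, goblet cells at 8.46 and 8.94 CPM and Paneth cells at 1.14 and 0.917 CPM. None of the 3 comparisons called Rbpj. The log2 fold changes were 0.21 ± 0.18 for the secretory lineage (adjusted p = 0.392), 0.13 ± 0.25 for stem cells (adjusted p = 0.810) and 0.57 ± 0.42 for secretory progenitors (adjusted p = 0.472). The 95% intervals of the first 2 reached from -0.16 to 0.58 and from -0.40 to 0.65, so larger differences would lie outside them. Among the 36 pairs of epithelial types 3 were called for Rbpj, all with EEC as the higher type. This is a smaller share than the 25.8% that the same pairs gave over all genes. Enterocytes were lower than EEC (log2 fold change -1.11 ± 0.36, adjusted p = 0.0139), as were goblet cells (-1.19 ± 0.40, adjusted p = 0.0229) and goblet progenitors (-1.05 ± 0.38, adjusted p = 0.0420), in pairs that called 41.5%, 28.5% and 22.7% of all tested genes. After TMM scaling EEC were highest in replicate 1 at 23.5 CPM. In replicate 2 they held 12.8 CPM against 14.0 CPM in stem cells. IEL held 49.5 and 44.4 CPM of Rbpj, and the EEC sum of replicate 2 carried IEL markers. Their part in the EEC values was not tested. Goblet and Paneth cells were not told apart after scaling (0.24 ± 0.55, adjusted p = 0.826).

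Hes1 (chromosome 16, 30064384 to 30067796, plus strand) encodes the repressor that Notch switches on in receiving cells. It was highest in stem cells at 108 and 121 CPM, from 193 and 194 UMIs. TA cells held 63.2 and 97.6 CPM, secretory progenitors 71.7 and 44.6 CPM and goblet progenitors 53.0 and 65.4 CPM. Enterocytes held 27.1 and 44.3 CPM, goblet cells 11.6 and 30.4 CPM, EEC 16.1 and 23.2 CPM and tuft cells 21.8 and 16.1 CPM. Paneth cells held 1.14 and 3.90 CPM, or 7.31 and 32.2 CPM after TMM scaling, and were not told apart from goblet cells after scaling (0.07 ± 0.44, adjusted p = 0.948). The level was thus highest in stem cells, lower in TA cells and lower still in the mature types, and no single gap along that order separated one set of types from the rest.

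Stem cells exceeded the other types in Hes1 by a log2 fold change of 1.78 ± 0.18 (adjusted p = 3.26e-08), with 2.01 and 1.63 in the individual mice, and no other type reached their level in either mouse. Against TA cells alone the difference of 0.67 ± 0.22 did not pass (adjusted p = 0.0753). TA cells exceeded enterocytes by 0.78 ± 0.21 (adjusted p = 0.00296). The secretory lineage was lower than the absorptive cells by 0.96 on the log2 scale (log2 fold change -0.96 ± 0.16, adjusted p = 1.93e-05), at means of 29.2 and 30.6 CPM against 45.1 and 70.9 CPM. In CPM the groups overlapped, because goblet and secretory progenitors held more Hes1 than enterocytes, and 4 of 6 secretory types lay below both absorptive types in each mouse. Secretory progenitors and TA cells were not told apart (log2 fold change -0.24 ± 0.32, adjusted p = 0.730, 95% interval -0.90 to 0.41), and the 2 mice gave opposite signs, 0.17 and -1.08.

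**Figure D3:**
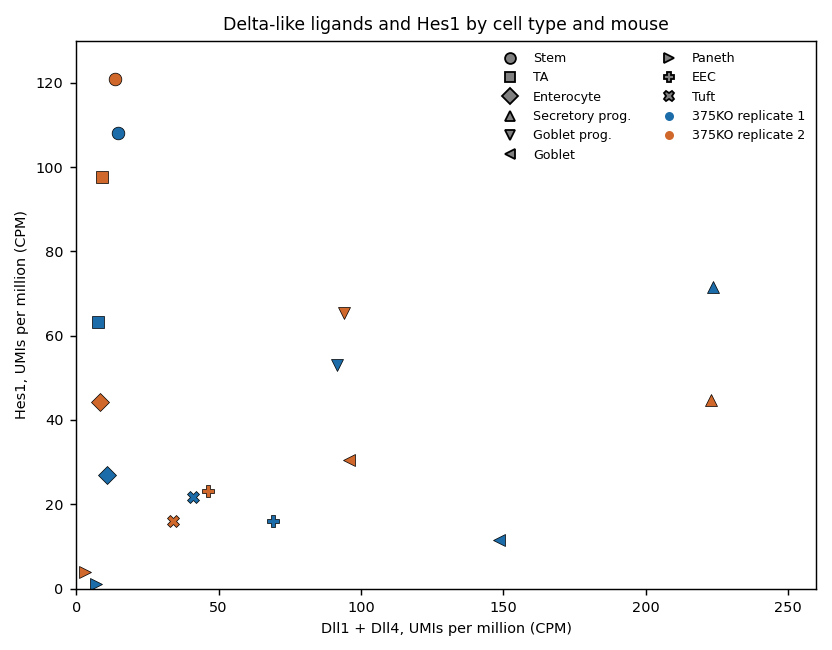
Summed level of Dll1 and Dll4 (horizontal axis, CPM) against the level of Hes1 (vertical axis, CPM) in the 9 epithelial types, with 1 point per type and mouse, shapes for types and colours for mice. Stem and TA cells lie at the upper left, Paneth cells at the lower left, goblet cells low and further right, and the secretory progenitors farthest to the right with 71.7 and 44.6 CPM of Hes1.

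The plot of Delta-like ligands against Hes1 sets the sending and the receiving side of the pathway against each other. Stem and TA cells lay together at high Hes1 and low ligand, Paneth cells were low in both in CPM, and goblet cells held much ligand and little Hes1. The secretory progenitors combined the highest Dll1 with a Hes1 level that was above those of TA cells and goblet progenitors in replicate 1 and below both in replicate 2. The sums are averages over 19 or more cells, so they do not show whether the same cell held both transcripts. Across the 18 sums the correlation (Pearson's r of scaled log2 CPM) of Hes1 was 0.84 with Notch2 and 0.44 with Notch1, and it was -0.60 with Dll4 and 0.03 with Dll1. Dll1 and Dll4 had r = 0.41 with each other, and Dll4 and Lfng had r = 0.63. The 18 points are 9 types in 2 mice and share depth and scaling, so these values are descriptions.

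The order of the types was next tested step by step. For each tested member the 9 epithelial types were ranked by mean CPM, and each type was compared with the one below it, which gave 64 pairs. Of these, 10 passed the threshold, and most steps in the order were within the spread. The same pairs called 22.5% over all genes. That share cannot be set against the members, because the pairs were neighbours in each member's own order, which favours small differences. For Dll1 the steps from goblet cells to goblet progenitors (0.94 ± 0.23, adjusted p = 0.00239) and from goblet progenitors to tuft cells (1.80 ± 0.38, adjusted p = 0.00106) were called, and the step from secretory progenitors to goblet cells was not (0.46 ± 0.26, adjusted p = 0.265). The third Dll1 step was enterocytes over TA cells (0.76 ± 0.29, adjusted p = 0.0327). For Notch1 the step from goblet progenitors to enterocytes passed (1.62 ± 0.35, adjusted p = 0.000316), and for Hes1 the step from enterocytes to goblet cells (0.73 ± 0.26, adjusted p = 0.0203). The steps above the enterocytes in the order of Hes1, including stem over TA cells, did not pass. No neighbouring pair passed for Jag1, Notch2 or Rbpj, so their orders are not resolved step by step. The other 5 called steps involved Paneth cells, 2 each for Notch1 and Lfng and 1 for Dll4, and for Notch1 and Lfng 1 of the 2 ran against the CPM order after scaling.

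**Figure D4:**
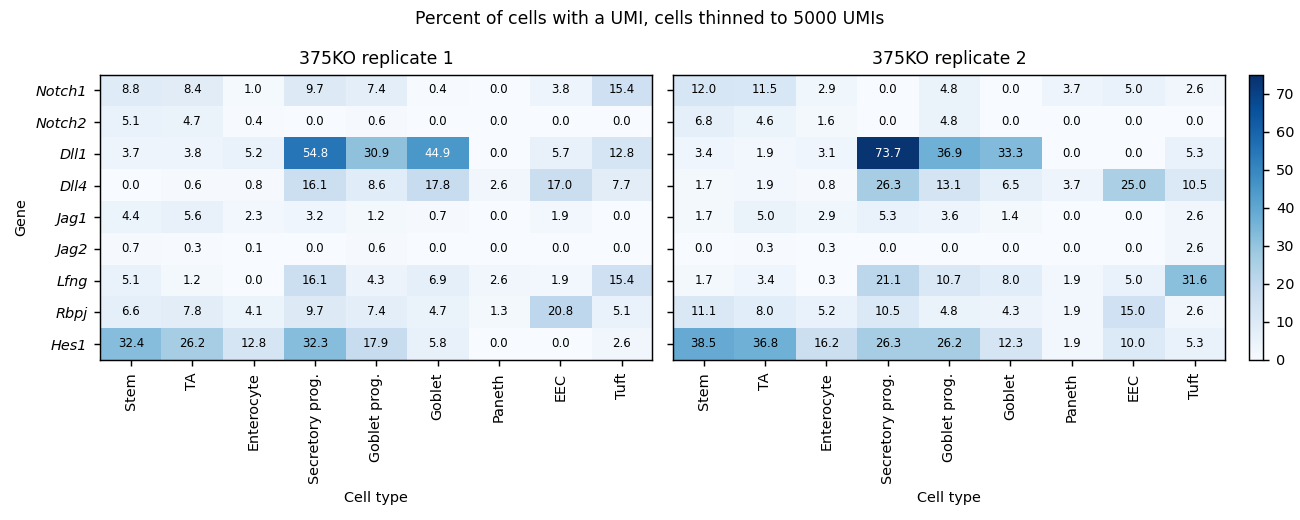
Percent of cells with at least 1 UMI of each member (rows) in each epithelial type (columns), for replicate 1 (left) and replicate 2 (right), with every cell thinned to 5000 UMIs. Dll1 reached 54.8% and 73.7% of secretory progenitors and Hes1 32.4% and 38.5% of stem cells, while Jag2 stayed at or under 2.63% in every type.

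The number of cells with a transcript was compared at equal total UMIs, since median depth ran from 7399.5 UMIs per cell in EEC of replicate 1 to 80820 in Paneth cells of replicate 2. With cells thinned to 5000 UMIs, Dll1 was found in 54.8% (17 of 31) and 73.7% (14 of 19) of secretory progenitors, 44.9% and 33.3% of goblet cells and 30.9% and 36.9% of goblet progenitors. In TA cells it was found in 3.75% and 1.86%, and in 0 of 78 and 0 of 54 Paneth cells. Equal totals do not give Paneth cells equal depth for these genes, because of 5000 UMIs about 870 and 907 fall outside their 10 most abundant genes, against 3717 or more in the other epithelial sums. Their thinned shares are therefore low by construction. Unthinned, the shares were 74.2% and 78.9% in secretory progenitors, 12.8% and 8.36% in TA cells (median depth 20811 and 16966 UMIs) and 6.41% and 11.1% in Paneth cells. Among epithelial types the unthinned share was highest in goblet progenitors in replicate 1 and in secretory progenitors in replicate 2. Goblet progenitors had a median depth of 28554.5 and 19683 UMIs, against 13081 and 10628 in secretory progenitors. In thinned cells Dll1 was thus found in most secretory progenitors and in a minority of goblet cells and goblet progenitors.

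Hes1 was found in 32.4% and 38.5% of thinned stem cells, 26.2% and 36.8% of TA cells, 32.3% and 26.3% of secretory progenitors and 17.9% and 26.2% of goblet progenitors. Its share was 12.8% and 16.2% in enterocytes and 0% and 1.85% in Paneth cells, with the same limit. Lfng was found in 16.1% and 21.1% of secretory progenitors and 15.4% and 31.6% of tuft cells, against 0 of 930 and 1 of 382 enterocytes. Dll4 was found in 17% and 25% of EEC and in no more than 1.86% of stem cells, TA cells or enterocytes. Its highest thinned share was in goblet cells in replicate 1 and in secretory progenitors in replicate 2. In both mice the shares of Lfng and Dll4 in secretory progenitors stood above these low shares. Free RNA was not estimated here, and its part in the shares was not tested. For Notch2 the thinned share reached 5.15% and 6.84% in stem cells and 4.69% and 4.64% in TA cells, so the receptor was caught in few cells even where it was highest.

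The other genes of the pathway were taken from 6 lists by role, 75 genes in all, of which 59 passed the filter. For the secretory lineage 9 were higher and 14 lower, 39.0% of those tested against the 41.7% over all genes, with a median log2 fold change of 0.03 against -0.05. For stem cells 11 were higher and 4 lower (25.4% against 25.6%), and for secretory progenitors 3 and 2 (8.47% against 9.9%). These shares lay close to the background in all 3 comparisons.

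**Figure D5:**
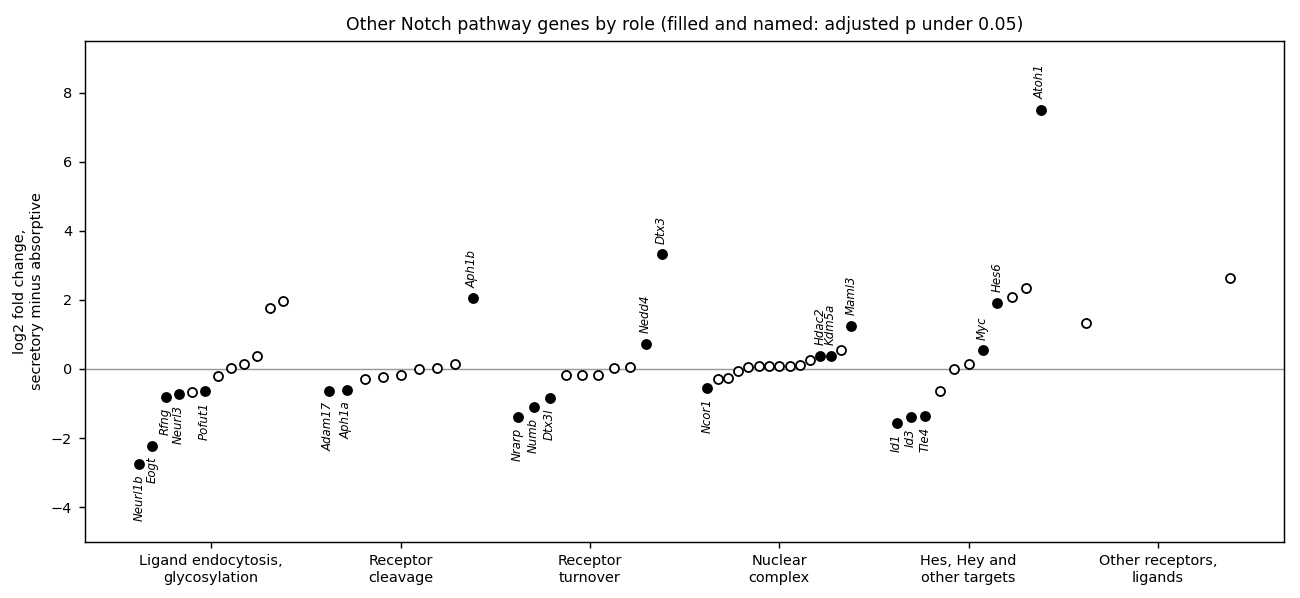
Log2 fold change of the secretory lineage over absorptive cells (vertical axis) for the 59 tested pathway genes, grouped by role, with filled and named points for an adjusted p under 0.05. Atoh1 stands highest at 7.49 and Neurl1b lowest at -2.75.

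The list of Hes and Hey factors and other targets also holds Tle corepressors and Atoh1, which Hes1 represses. Its counts are therefore not a measure of Notch output. Of its 11 tested genes, 3 were higher and 3 lower in the secretory lineage, 54.5% against 41.7% of all genes. Atoh1, the secretory fate factor that Hes1 represses, was at 73.8 and 62.5 CPM in secretory progenitors and 212 and 203 CPM in goblet cells, against 1.42 and 1.05 CPM in TA cells and 1 and 0 UMIs in enterocytes. Its fitted log2 fold change was 7.49 ± 0.34 (adjusted p = 1.33e-17), a size that rests on nearly empty enterocyte sums and was 5.98 and 4.64 in the individual mice. Against TA cells alone the secretory progenitors were higher by 5.76 ± 0.42 (adjusted p = 1.59e-11). Stem cells were lower than the equally weighted mean of the other types (log2 fold change -2.55 ± 0.59, adjusted p = 0.00159).

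Hes6, a Hes family member known to oppose Hes1, held 241 and 424 CPM in secretory progenitors against 44.2 and 51.2 CPM in TA cells. It was higher in the secretory lineage by 1.90 ± 0.12 (adjusted p = 2.35e-14) and in secretory progenitors by 2.78 ± 0.21 (adjusted p = 1.88e-11). Of the same list, Tle4, a Groucho family corepressor, was lower in secretory progenitors (-1.80 ± 0.46, adjusted p = 0.00911). So was Id3, an inhibitor of helix-loop-helix factors (-1.15 ± 0.26, adjusted p = 0.00441).

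The stem cell comparison called 5 of the 11 tested genes of the same list higher and 2 lower. At 63.6% the list stood above the background of 25.6%. The 5 include Olfm4, which is also on the stem cell marker list. Myc held 46.0 and 105 CPM in stem cells against 21.7 and 35.3 CPM in TA cells, and its log2 fold change over the other types was 2.34 ± 0.20 (adjusted p = 5.07e-10). Olfm4, a stem cell marker that responds to Notch, held 313 CPM in stem cells of replicate 1 and 14.3 CPM in those of replicate 2. Its fitted log2 fold change of 5.93 ± 0.55 (adjusted p = 0.000294) averages over types with no UMI and was 5.91 and 2.68 in the individual mice.

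Of the 10 tested genes of receptor turnover, 2 were higher and 3 lower in the secretory lineage (50% against 41.7% of all genes), and 3 higher and 1 lower in stem cells (40% against 25.6%). Nrarp, a feedback inhibitor that Notch itself induces, held 30.3 and 37.4 CPM in stem cells, 32.7 and 49.7 CPM in TA cells and 0.529 and 5.36 CPM in goblet cells. Its stem cell level exceeded the equally weighted mean of the other types by 1.72 ± 0.24 (adjusted p = 3.88e-06). In CPM it did not exceed that of TA cells, the highest epithelial type in both mice. Dtx3, a Deltex family ubiquitin ligase, was higher in the secretory lineage (3.31 ± 0.90, adjusted p = 0.00336) on few UMIs, 5 and 5 of them in EEC.

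Ligand endocytosis and receptor glycosylation had 5 of 12 genes lower in the secretory lineage and none higher, and this 41.7% equals the share over all genes. Neurl1b, a ubiquitin ligase of the Neuralized family that acts on ligands, held 13.3 and 23.0 CPM in enterocytes and no UMI in Paneth cells of either mouse, with a fitted log2 fold change of -2.75 ± 0.36 (adjusted p = 1.67e-07). Eogt, which adds sugar to Notch receptors, likewise had no UMI in Paneth cells and a fitted -2.22 ± 0.57 (adjusted p = 0.00215). In stem cells Eogt exceeded the equally weighted mean of the other types by a fitted 1.79 ± 0.66 (adjusted p = 0.0426). The individual mice gave 0.57 and 1.87, and in CPM its highest type was EEC in replicate 1 and stem cells in replicate 2. Poglut1, another receptor glycosyltransferase, was higher in stem cells by 1.44 ± 0.28 (adjusted p = 0.000197), with 1.37 and 1.34 in the individual mice.

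Of the receptor cleavage genes, 1 of 9 was higher and 2 lower in the secretory lineage, 33.3% against 41.7% of all genes, and none was called in the other comparisons. The one higher was Aph1b, a gamma-secretase subunit, with 2.04 ± 0.68 (adjusted p = 0.0150) on no more than 13 UMIs in any sum. Of the nuclear complex, 3 of 15 tested genes were higher and 1 lower in the secretory lineage, 26.7% against 41.7% of all genes. Maml3, a Mastermind coactivator, held 32.6 and 17.9 CPM in secretory progenitors against 9.36 and 6.12 CPM in TA cells, with a log2 fold change of 1.76 ± 0.48 (adjusted p = 0.0161). The other receptors and ligands were almost absent, with 2 and 1 UMIs of Notch3, 39 and 31 of Notch4, 21 and 22 of Dll3, 33 and 10 of Dner, 1 and 0 of Dlk2 and none of Dlk1. Of these 6 genes 2 were tested and neither was called in any comparison.

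The genes most alike in pattern to each member were found by the correlation of scaled log2 CPM over the 18 epithelial sums, which is a description over 9 types in 2 mice. Lfng was most like Hes6 (r = 0.88), followed by Nav2 (0.86) and Akr1b3 (0.85). Dll4 was most like Tecpr1 (0.95), Cbfa2t3 (0.93) and Hepacam2 (0.92), and Dll1 most like Kif13a (0.86), Rasd2 (0.84) and C2cd4a (0.83). Hes1 was most like A430005L14Rik (0.92), Thumpd3 (0.88) and Hspe1 (0.88). The leading genes were Hunk, Whsc1 and Hmgn1 for Notch1 (0.87 to 0.84), Tomm5, Banf1 and Agmat for Notch2 (0.93 to 0.85), Snx27, Gsr and Pdcd5 for Jag1 (0.92 to 0.88) and Bhlhb9, Sf3b6 and Ctnnbl1 for Rbpj (0.85 to 0.81).

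The annotated IEL, the only type outside the epithelium, were left out of the fits. Their sums held 50 and 18 cells and 262594 and 225423 UMIs. Rbpj was at 49.5 and 44.4 CPM in IEL, above every epithelial type in both mice, and Notch2 was at 15.2 and 13.3 CPM from 4 and 3 UMIs. Notch1 differed between the mice, with 72.4 CPM (19 UMIs) in replicate 1 and 4.44 CPM (1 UMI) in replicate 2. Lfng was at 7.62 and 35.5 CPM, and Jag1 and Jag2 had no UMI in either mouse. The IEL sum of replicate 2 carried B cell markers at a summed 5292 CPM, against 34.3 CPM in replicate 1, and IEL markers at 9347 CPM against 16851 CPM. Their part in the Notch1 and Lfng values was not tested.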

How the data were processed

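Per the labels and the study's methods, the authors aligned 10x 3′ reads to mm10 with Cell Ranger 3.0.1 and deposited UMI counts per gene and barcode. They removed doublets and cells under 1500 genes or over 25% mitochondrial reads, and named cell types after Seurat clustering. They state that SoupX removed free RNA, without saying in which matrices. The annotation was joined by order to a deposited count table, where all 3275 cells matched in UMI total, gene number and sample, and its barcodes gave the columns of the per-library matrices, whose counts were used. There the UMI total was the same in 1358 of the 3275 cells and differed by up to 1.29% in the others. The mitochondrial percent of each cell is as deposited by the authors, computed from its UMIs. Another 2937 cell columns per table, from another series, were not used, and no barcode was shared between libraries.

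Raw counts were summed per mouse and cell type and tested with edgeR 4.0.16 (filterByExpr, TMM, robust quasi-likelihood, cell type and mouse as terms, 18 sums, 8 residual degrees of freedom, Benjamini-Hochberg adjustment over 11013 genes). Each mouse contributes every type, so the mouse was the block, and deviations of sums of the same mouse correlated at 0.119 to 0.662 over 36 pairs. Values for 1 mouse were computed with a prior count of 2. On simulated counts for the secretory comparison with 200 of 11013 genes changed by 2 on the log2 scale, 90% were recovered and 4.76% of calls were false. In that simulation all other genes were level over types and mice. The data hold many called genes and deviations shared within a mouse, so these rates do not carry over to them. Intervals are 95% exact Poisson and cover counting error only. Positions are from GENCODE vM21 and promoters from RefSeq, both GRCm38. Antisense genes overlap Dll1, Dll4, Rbpj and Notch1, and the kit keeps the strand. It does not separate genes on the same strand, which overlap Notch2 (Gm42819 and Gm42820), Notch1 (Mir6996) and Jag2 (Mir6941). Members and gene lists were chosen with earlier results of these data known. Named were the 9 members, up to 6 other pathway genes past the threshold with the largest changes in each comparison, and the 3 most alike genes of each tested member. The other receptors and ligands were named after their values were seen. DESeq2 1.42.0, other scaling, filters, thinning to 5000 UMIs and left-out types or mice were tried as alternatives.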

Additional observations from a re-analysis of the deposited data

How the results depend on the processing

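Without the mouse as a replicate block, the genes called fell from 4590, 2815 and 1090 to 2984, 1019 and 372 in the secretory, stem and progenitor comparisons, the tested members called for stem cells from 5 to 3, and neighbouring pairs from 10 to 5. The calls lost were those of Notch2 and, in stem cells, Dll1. With cells thinned to 5000 UMIs the genes called were 2796 and 1801 in the first 2 comparisons, the members 3 and 3, and the pairs 6, with Jag1 and Notch2 no longer tested. Thinned and without Paneth cells, chosen after seeing the data, as was leaving out EEC, they were 3058 and 1758 genes and 5 pairs. Fewer UMIs and fewer pairs are tested there. The members with the same highest type in both mice numbered 2 by unthinned share and 4 by thinned share. Leaving out 1 mouse gave values with no test. Without replicate 1, Notch2 was -1.26 and 1.83 in the secretory and stem comparisons, Dll1 -0.63 in stem cells and Dll4 2.74 in progenitors, and the single mice include a prior count that the fit does not.

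Notch1 in the secretory comparison, never called, turned negative in 9 alternatives. The values were -0.032 with no filter, -0.033 with cells at most 15% mitochondrial, -0.043 without Paneth cells, -0.14 without EEC, -0.058 without tuft cells, -0.20 without progenitors, -0.44 with stem cells among the absorptive, -0.18 thinned and -0.47 thinned without Paneth cells. The share of calls that were higher in the secretory lineage was 40.0%, and 26.4% when thinned, while the progenitor comparison went from 55.1% to 39.5% when thinned, 39.9% without a filter, 69.5% with DESeq2 and 77.2% without the block. For stem cells it went from 60.4% to 74.0% when thinned. Thinning moved the median log2 fold change of all genes to -0.23, 0.20 and -0.18. Dll4, Lfng and Hes1 in the secretory comparison, Hes1, Notch1 and Dll4 in stem cells, and Dll1, Dll4 and Lfng in progenitors kept direction and call in every tested alternative. The smallest sums, 215413 UMIs in EEC of replicate 2, limit what Notch2, Jag1 and Jag2 can show.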

Other observations

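Between the mice, which the labels do not distinguish and which gave 1 library each, Jag2, Notch2 and Lfng had the largest ratios among the members. Jag2 was at 0.583 and 1.49 CPM with each epithelial type weighted equally, a ratio of 2.55 that rests on few UMIs, 2 of them in EEC of replicate 2. With each epithelial type weighted equally, Notch2 was at 1.66 CPM in replicate 1 and 4.17 CPM in replicate 2, a ratio of 2.51, and it was higher in replicate 2 in 7 types and in none lower. Lfng was at 11.5 and 21.8 CPM, a ratio of 1.89, and higher in replicate 2 in 9 of 9 types. Rbpj was at 16.9 and 12.1 CPM, a ratio of 0.717, and lower in replicate 2 in 7 of 9. The median mitochondrial share was 10.2% of UMIs in replicate 1 and 5.55% in replicate 2, and Olfm4 in stem cells was at 313 and 14.3 CPM. The part of cell quality in these differences was not tested.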
